A study of Mus musculus with 4 samples.

Results

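The genes examined here encode the machinery of glucose uptake, glycolysis, pyruvate entry into mitochondria, the pentose phosphate pathway and glycogen turnover. They are 41 of the 45706 genes in the deposited table, taken by gene symbol from a list, and each symbol was found once. The samples are gWAT, gonadal white fat, of C57B6/N mice that had received a high-fat diet (HFD) for 2 months. In 2 mice no drug was given (HFD), and in the other 2 the food held 0.03% by weight of canagliflozin for 7 days (HFD+Cana). Canagliflozin inhibits SGLT2, the kidney transporter that returns filtered glucose to the blood, and the comparison asks how its short-term use alters transcript levels in the fat of obese mice. Both groups share the diet, no lean group was analysed here, and the sample labels give neither age nor sex. The paper states that its mice were male, apart from a knockout line that is not among these samples.

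Glucose enters adipocytes through facilitative transporters, is trapped as glucose-6-phosphate by hexokinases, and is then split and oxidised to pyruvate by the enzymes of glycolysis. Pyruvate is reduced to lactate, of which fat is a known source, or enters mitochondria through the pyruvate dehydrogenase complex, which the kinases PDK1 to PDK4 switch off. The oxidative pentose phosphate pathway supplies NADPH for fatty acid synthesis, and a small glycogen store is kept in adipocytes. In white fat, insulin favours glucose uptake and its use for lipid synthesis, whereas fasting does the reverse.

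Levels are given in TPM, in which reads are divided by transcript length and scaled to a total of 1000000 in every sample, so levels of different genes can be set side by side. TPM keeps no record of depth. Fold changes are HFD+Cana minus HFD on the log2(TPM + 1) scale, fitted with limma over the 13788 genes whose mean reached 1 TPM; Benjamini-Hochberg adjustment covered all of them, and SE is the standard error. Of the 41 genes, 40 passed this filter, each with a mean of at least 5 TPM, and the brain aldolase Aldoc did not. With 2 mice against 2, an exact two-sided permutation test of a single value cannot go below p = 0.33. Over all genes, 6 passed an adjusted p of 0.05 in limma (0.0435%), all higher in HFD+Cana, and none of the 41 genes was among them. Markers of some other cell types differed between the groups. All 5 hepatocyte markers were higher in both HFD+Cana mice, summed at 3.62 and 6.62 versus 92.1 and 124 TPM, and Ttr and Fga were listed at 0 in both HFD mice. All 5 mesothelial markers were higher too (summed 42.6 and 31.7 against 131 and 222 TPM). Of 5 red blood cell markers 4 were higher in both (summed 1756 and 5940 against 14391 and 6673 TPM), as were 3 of 5 fibroblast and progenitor markers (summed 1141 and 1257 against 1639 and 1592 TPM). Of 4 endothelial markers 2 were lower in both (summed 501 and 493 against 417 and 450 TPM). The neutrophil marker sum was also lower (131 and 59.0 against 28.8 and 28.3 TPM), and in the HFD mice most of it was S100a8 (117 and 53.7 TPM). S100a8 was the only 1 of 4 tested markers that was lower in both HFD+Cana mice, and the other tested ones overlapped. Cxcr2, below the filter, was higher in both. The adipocyte markers themselves were abundant in every mouse, at summed levels between 40867 and 48779 TPM, as the label gWAT requires.

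In gWAT of HFD+Cana mice, lower levels ran along much of the glycolytic pathway, although none of the 41 genes passed the threshold. Among the 40 genes tested, 10 were lower at an unadjusted p under 0.05 in limma (25.0%, where 5.45% of all genes tested were lower by this rule) and 2 were higher (where 5.32% of all genes were). The list of genes was chosen with earlier results of these data known, so these shares are a description only. The 10 lower genes were Pfkl, Pfkfb3, Pfkfb4, Aldoa, Tpi1, Pgk1, Eno1 and Ldha of glycolysis, and G6pdx and Pgd of the pentose phosphate pathway. The 2 higher genes were Ugp2 and Pdk3. None passed an adjusted p of 0.05 in limma, and the adjusted values of the 40 genes ran from 0.282 to 0.989. The groups were separated downwards, with each HFD+Cana mouse under each HFD mouse, in 17 of the 40 genes (42.5%, against 19.8% of all genes tested) and upwards in 8 (against 24.3% of all genes tested). The log2 fold change was below 0 in 22 of the 40 genes (against 46.2% of all genes tested). By role, the median log2 fold change was -0.21 over 21 glycolysis genes and -0.25 over 4 pentose phosphate genes. It was 0.04 over 3 transporters, 0.07 over 7 pyruvate entry genes and 0.11 over 5 glycogen genes, where the median of all genes tested was 0.02. The count of 10 rested in part on single mice. Leaving out any mouse left a single mouse in its group, so only sizes of change are given here. The log2 fold change ran from -0.79 to -0.38 for Pfkfb3 and from -0.24 to -0.19 for Pgk1, as examples. All 10 log2 fold changes stayed below 0 in each of these fits, which adds no separate evidence. The groups were separated in each of the 10 genes, and leaving out a mouse then cannot change the sign.

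**Figure D1:**
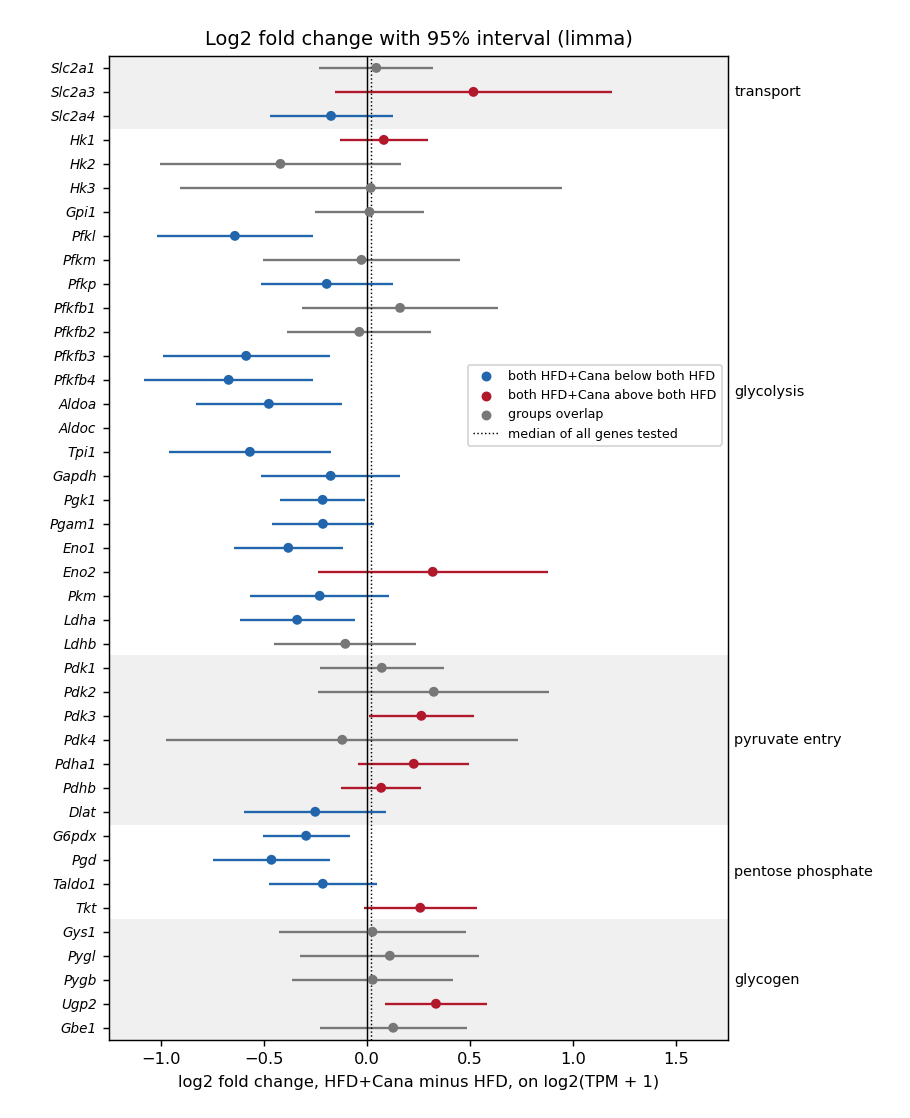
Log2 fold change (HFD+Cana minus HFD, on log2(TPM + 1)) of the 40 tested genes, by role, with 95% intervals from limma; the dotted line is the median of all genes tested, 0.02, and Aldoc has no point because it was below the filter. Blue points (both HFD+Cana mice below both HFD mice) fill much of glycolysis and the pentose phosphate pathway. None of the 5 glycogen genes is blue, where 19.8% of all genes tested were lower in this way.

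As these are bulk samples, fewer cells of a type and less RNA per cell cannot be told apart. The 7 adipocyte markers also differed: 5 of them (Plin1, Cidec, Lpl, Pparg and Lep) were lower in both HFD+Cana mice and none was higher in both, with a median log2 fold change of -0.32 and a range from -0.75 for Lep to 0.12 for Adipoq. Of the 10 lower genes, 8 had a log2 fold change below that median, but they were picked as lower in these data. Without such a choice, the median was -0.21 over the 21 glycolysis genes tested and -0.07 over all 40 genes tested. The summed levels of the 7 markers, of which Fabp4 was the largest term, overlapped (45990 and 47286 versus 40867 and 48779 TPM). The part of adipocyte content, or of the other cell types whose markers differed, in the lower glycolytic levels was not tested.

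The sequence around the gene start is shown here for the 4 lower genes of smallest p and the higher gene of smallest p, from RefSeq on GRCm38.p6, with 250 bases before and 50 after the most upstream start listed. A promoter was found in that table for 39 of the 41 genes, and for Slc2a3 and Slc2a4 none is printed. Capitals mark ACGTG or GCGTG on either strand, the core letters bound by the hypoxia-inducible factors, which drive many glycolytic genes. The windows are chr10:78009758-78010057 (minus strand) for Pfkl, chr9:108991652-108991951 (plus strand) for Pfkfb4, chr4:149166656-149166955 (minus strand) for Pgd, chr6:124814109-124814408 (minus strand) for Tpi1 and chr11:21371218-21371517 (minus strand) for Ugp2.
Pfkl: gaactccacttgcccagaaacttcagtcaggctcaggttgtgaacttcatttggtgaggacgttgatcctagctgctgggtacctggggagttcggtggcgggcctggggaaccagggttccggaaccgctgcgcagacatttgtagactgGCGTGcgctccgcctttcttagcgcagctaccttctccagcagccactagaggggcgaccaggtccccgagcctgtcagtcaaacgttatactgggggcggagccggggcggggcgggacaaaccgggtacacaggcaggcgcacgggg
Pfkfb4: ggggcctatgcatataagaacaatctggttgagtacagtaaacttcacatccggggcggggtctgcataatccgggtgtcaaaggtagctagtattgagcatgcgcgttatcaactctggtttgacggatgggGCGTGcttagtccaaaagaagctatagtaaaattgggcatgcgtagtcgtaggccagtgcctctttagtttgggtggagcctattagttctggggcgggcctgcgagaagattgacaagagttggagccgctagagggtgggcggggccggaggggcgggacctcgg
Pgd: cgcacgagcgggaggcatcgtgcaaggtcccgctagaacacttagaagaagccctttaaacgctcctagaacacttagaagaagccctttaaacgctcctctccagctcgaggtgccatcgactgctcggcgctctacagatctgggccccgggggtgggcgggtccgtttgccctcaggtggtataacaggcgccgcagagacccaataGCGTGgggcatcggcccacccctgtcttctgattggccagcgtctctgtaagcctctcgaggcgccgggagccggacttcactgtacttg
Tpi1: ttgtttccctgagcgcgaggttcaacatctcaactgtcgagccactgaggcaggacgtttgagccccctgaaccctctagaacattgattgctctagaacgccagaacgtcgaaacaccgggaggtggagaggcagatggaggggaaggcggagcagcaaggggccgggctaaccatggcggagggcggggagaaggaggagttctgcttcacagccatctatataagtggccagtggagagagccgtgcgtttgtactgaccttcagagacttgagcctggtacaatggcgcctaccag
Ugp2: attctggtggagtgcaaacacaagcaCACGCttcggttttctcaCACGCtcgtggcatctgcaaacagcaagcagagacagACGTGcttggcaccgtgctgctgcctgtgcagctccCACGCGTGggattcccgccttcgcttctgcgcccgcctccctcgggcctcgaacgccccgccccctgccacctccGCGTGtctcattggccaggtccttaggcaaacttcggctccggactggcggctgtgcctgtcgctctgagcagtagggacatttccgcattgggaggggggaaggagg
The windows of Pfkl, Pfkfb4 and Pgd each held 1 GCGTG and no ACGTG, that of Tpi1 held neither, and that of Ugp2 held 5 GCGTG and 1 ACGTG. Over all windows of a gene, 9 of the 10 lower genes (90.0%) and 24 of the 29 other genes with a promoter (82.8%) held at least 1 of these cores, against 46.7% of 27025 genes in the table. A gene with more windows has more places for a match, and the sets differ in windows per gene. Counted by window, the shares were 82.4% of 17 (lower genes), 67.4% of 43 (others) and 43.8% of 32851 (all genes). The E-box CACGTG, which contains ACGTG and is a core of the sites bound by the carbohydrate response factor ChREBP, was found in Ldha and Pfkfb3 among the 10 lower genes and in 3 of the 29 others (10.3%), against 8.09% of all genes. By window, its shares were 11.8% (lower genes), 6.98% (others) and 7.15% (all genes). These matches are descriptions of the letters only.

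None of the 3 glucose transporters had an unadjusted p under 0.05. Slc2a4 encodes GLUT4, the transporter that insulin brings to the surface of adipocytes. It lies on chromosome 11 from 69942539 to 69948188 (GRCm38, GENCODE M21, as for all gene positions here) and stood at 87.7 and 89.8 (HFD) versus 71.7 and 86.1 TPM (HFD+Cana). Both HFD+Cana mice were below, but replicate 2 by less than the distance between the HFD+Cana mice, and the log2 fold change was -0.17 (95% interval -0.47 to 0.12). Slc2a1 (GLUT1, the basal transporter) stood at 11.5 and 11.1 (HFD) versus 12.3 and 11.0 TPM (HFD+Cana), with overlapping groups and an interval from -0.23 to 0.32. Slc2a3 (GLUT3, a high-affinity transporter of neurons that is also found in blood cells) stood at 5.99 and 8.10 (HFD) versus 8.24 and 13.1 TPM (HFD+Cana). Its groups were separated only narrowly, and the log2 fold change of 0.52 had an SE of 0.25. GLUT4 made up 83.4% and 82.4% of the summed TPM of these transporters in HFD and 77.7% and 78.1% in HFD+Cana, so its share was lower in both HFD+Cana mice (exact permutation p = 0.33, the smallest possible).

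No hexokinase, the enzyme that commits glucose to the cell, was lower in both HFD+Cana mice. Hk2, the insulin-responsive form of muscle and fat (chromosome 6 from 82725025 to 82774454), stood at 31.1 and 41.04 (HFD) versus 22.1 and 31.6 TPM (HFD+Cana). The groups overlapped only because HFD+Cana replicate 2 was just above HFD replicate 1. The HFD+Cana mean of Hk2 was 74.5% of the HFD mean, and its log2 fold change was -0.42 (95% interval -1.003 to 0.16). Hk1, the form present in most tissues, stood at 27.1 and 27.0 (HFD) versus 28.0 and 29.3 TPM (HFD+Cana), a log2 fold change of 0.08 (SE 0.08). Hk3, a form of myeloid cells, stood at 14.3 and 8.89 (HFD) versus 15.6 and 8.36 TPM (HFD+Cana), so that a high and a low mouse were found in each group. The sum of the 7 macrophage markers had the same order of mice within each group, at 2610 and 1881 versus 3285 and 1920 TPM, and their part in the level of Hk3 was not tested. Gpi1, which turns glucose-6-phosphate into fructose-6-phosphate, stood at 250 and 224 (HFD) versus 249 and 228 TPM (HFD+Cana), an interval from -0.25 to 0.28.

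Of the subunits of phosphofructokinase, the committed step of glycolysis, Pfkl and Pfkp were lower in both HFD+Cana mice. Pfkl, the liver-type subunit (chromosome 10 from 77986947 to 78010083) stood at 72.8 and 56.3 (HFD) versus 39.6 and 41.9 TPM (HFD+Cana). All HFD values were above all HFD+Cana values, the HFD+Cana mean was 63.1% of the HFD mean, and the log2 fold change was -0.64 (SE 0.14, adjusted p = 0.282 in limma). Pfkl had the smallest p of the 40 genes, and its log2 fold change lay between -0.82 and -0.46 when any single mouse was left out. Pfkp, the platelet-type subunit, stood at 52.3 and 54.5 (HFD) versus 42.0 and 51.5 TPM (HFD+Cana), lower in both HFD+Cana mice (log2 fold change -0.20, SE 0.12). Pfkm, the muscle-type subunit, stood at 13.0 and 16.3 (HFD) versus 12.4 and 16.4 TPM (HFD+Cana), with an interval from -0.50 to 0.45. Markers of skeletal muscle summed to 238 and 264 versus 111 and 195 TPM, of which most was Acta1, and the muscle creatine kinase Ckm reached 11.4 TPM in HFD replicate 2 and at most 0.224 TPM in any other mouse. Pfkl took 52.7% and 44.3% of the summed TPM of the phosphofructokinase genes in HFD and 42.1% and 38.1% in HFD+Cana, again separated (exact permutation p = 0.33).

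The bifunctional PFKFB enzymes make and degrade fructose-2,6-bisphosphate, the activator of phosphofructokinase, and Pfkfb3 and Pfkfb4 were the lower ones. Pfkfb3 (chromosome 2 from 11471433 to 11554077), the most abundant of the 4 genes, stood at 180 and 238 (HFD) versus 135 and 140 TPM (HFD+Cana). The groups did not overlap, and the HFD+Cana mean was 65.8% of the HFD mean (log2 fold change -0.59, SE 0.15, adjusted p = 0.332 in limma). Pfkfb4 (chromosome 9 from 108991778 to 109032228) stood at 19.98 and 20.3 (HFD) versus 14.2 and 10.6 TPM (HFD+Cana). Its HFD values lay close together and well above both HFD+Cana values (log2 fold change -0.67, SE 0.16, adjusted p = 0.291 in limma), and it had the lowest ratio of means of the 10 lower genes, 61.6%. Pfkfb1, known as the liver and muscle form, stood at 46.5 and 60.3 (HFD) versus 52.6 and 66.9 TPM (HFD+Cana), and Pfkfb2, the heart form, stood at 7.63 and 9.21 versus 7.79 and 8.52 TPM. Both overlapped between groups. The share of Pfkfb3 in the family was 70.8% and 72.6% in HFD and 64.4% and 62.0% in HFD+Cana, while that of Pfkfb1 was 18.3% and 18.4% against 25.1% and 29.6%. These shares were separated (exact permutation p = 0.33 each), and over all 25 shares computed in 9 families, 11 were separated, with a lowest adjusted p of 0.725.

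**Figure D2:**
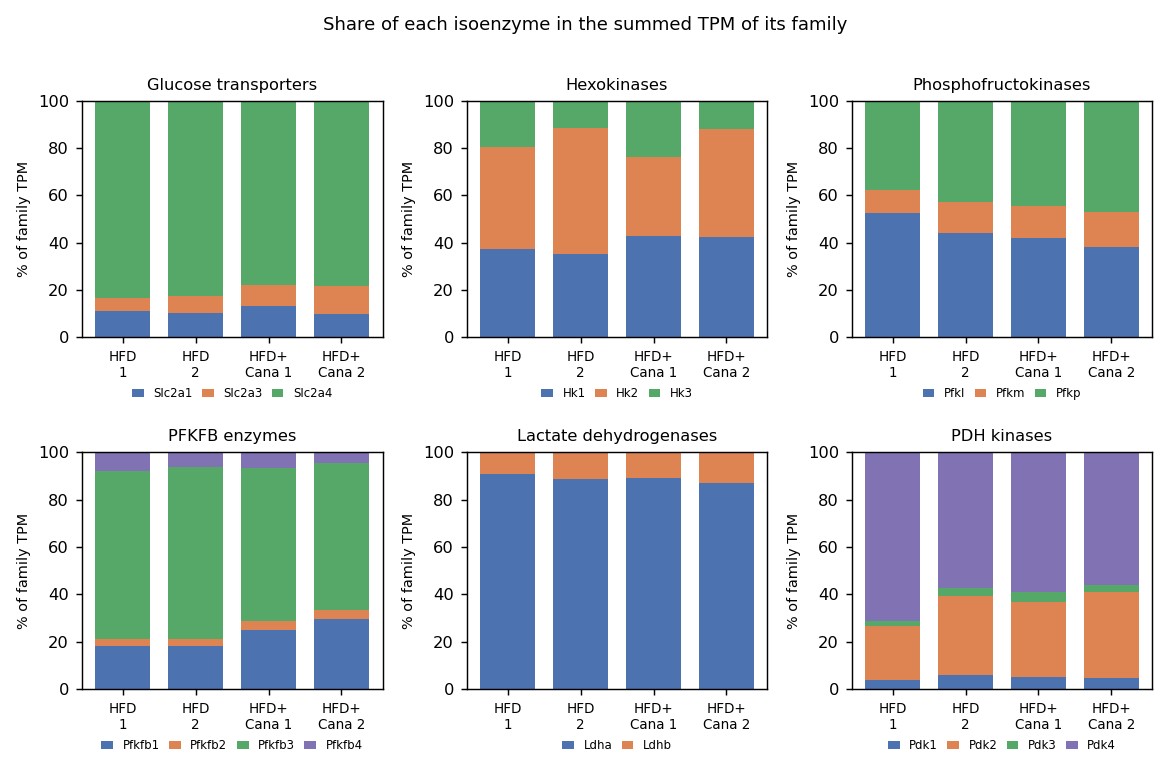
Share (%) of each isoenzyme gene in the summed TPM of its family, 1 bar per mouse, for 6 of the families. Pfkfb3 takes 70.8% and 72.6% (HFD) versus 64.4% and 62.0% (HFD+Cana), and Pfkl, Slc2a4 and Pfkfb3 are each smaller in both HFD+Cana mice.

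Below phosphofructokinase, every abundant enzyme gene of the trunk was lower in both HFD+Cana mice, as were 19.8% of all genes tested. For Gapdh and Pkm the gap between the groups was small for the spread within them. Aldoa (chromosome 7 from 126795234 to 126800751), the aldolase that splits fructose-1,6-bisphosphate, was the most abundant of the 41 genes and stood at 2243 and 1898 (HFD) versus 1463 and 1503 TPM (HFD+Cana). The gap between the groups exceeded the distance between mice of either group, and the HFD+Cana mean was 71.6% of the HFD mean (log2 fold change -0.48, SE 0.13, adjusted p = 0.362 in limma). Aldoc, below the filter, stood at 0.697 and 0.328 (HFD) versus 0.444 and 0.790 TPM (HFD+Cana). Tpi1 (chromosome 6 from 124810586 to 124814296), which interconverts the triose phosphates, stood at 762 and 594 (HFD) versus 468 and 440 TPM (HFD+Cana). Its HFD+Cana mice were both below, at 66.9% of the HFD mean (log2 fold change -0.57, SE 0.15, adjusted p = 0.331 in limma).

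The steps from glyceraldehyde-3-phosphate to pyruvate showed smaller differences. Gapdh, which oxidises that sugar phosphate and is often taken as a reference transcript, stood at 1790 and 1553 (HFD) versus 1434 and 1518 TPM (HFD+Cana). The groups were separated by less than the distance between the HFD mice, and the interval of -0.51 to 0.16 held 0. Pgk1 (X chromosome from 106187100 to 106203699), which makes ATP at the next step, stood at 150 and 144 (HFD) versus 129 and 124 TPM (HFD+Cana), a log2 fold change of -0.22 (SE 0.08, adjusted p = 0.449 in limma). The mutase Pgam1 stood at 195 and 178 (HFD) versus 167 and 155 TPM (HFD+Cana), a log2 fold change of -0.21 (SE 0.09). The enolase Eno1 (chromosome 4 from 150236721 to 150248879) stood at 596 and 562 (HFD) versus 423 and 465 TPM (HFD+Cana). Its groups were far apart for their spread, with the HFD+Cana mean at 76.8% of the HFD mean (log2 fold change -0.38, SE 0.10, adjusted p = 0.331 in limma). Eno2, the neuronal enolase, stood at 6.09 and 5.77 (HFD) versus 9.48 and 6.12 TPM (HFD+Cana), where HFD+Cana replicate 1 stood alone. The pyruvate kinase Pkm stood at 307 and 259 (HFD) versus 257 and 225 TPM (HFD+Cana), a log2 fold change of -0.23 (SE 0.13). Its groups were separated only narrowly, with HFD+Cana replicate 1 just under HFD replicate 2.

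At the lactate branch, Ldha (chromosome 7 from 46841475 to 46855627), whose subunit favours lactate formation, stood at 790 and 700.0 (HFD) versus 583 and 592 TPM (HFD+Cana). Both HFD+Cana mice were below, at 78.9% of the HFD mean (log2 fold change -0.34, SE 0.11, adjusted p = 0.409 in limma). Ldhb, whose subunit favours the return to pyruvate, stood at 80.2 and 90.0 (HFD) versus 71.3 and 87.3 TPM (HFD+Cana), with overlapping groups. The share of Ldha was 90.8% and 88.6% in HFD and 89.1% and 87.2% in HFD+Cana, also overlapping. Summed over the 22 glycolysis genes, the level was 7633 and 6741 versus 5623 and 5751 TPM, a ratio of means of 0.791. All 41 genes together held 1.02% and 0.905% (HFD) versus 0.780% and 0.817% (HFD+Cana) of the total TPM.

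**Figure D3:**
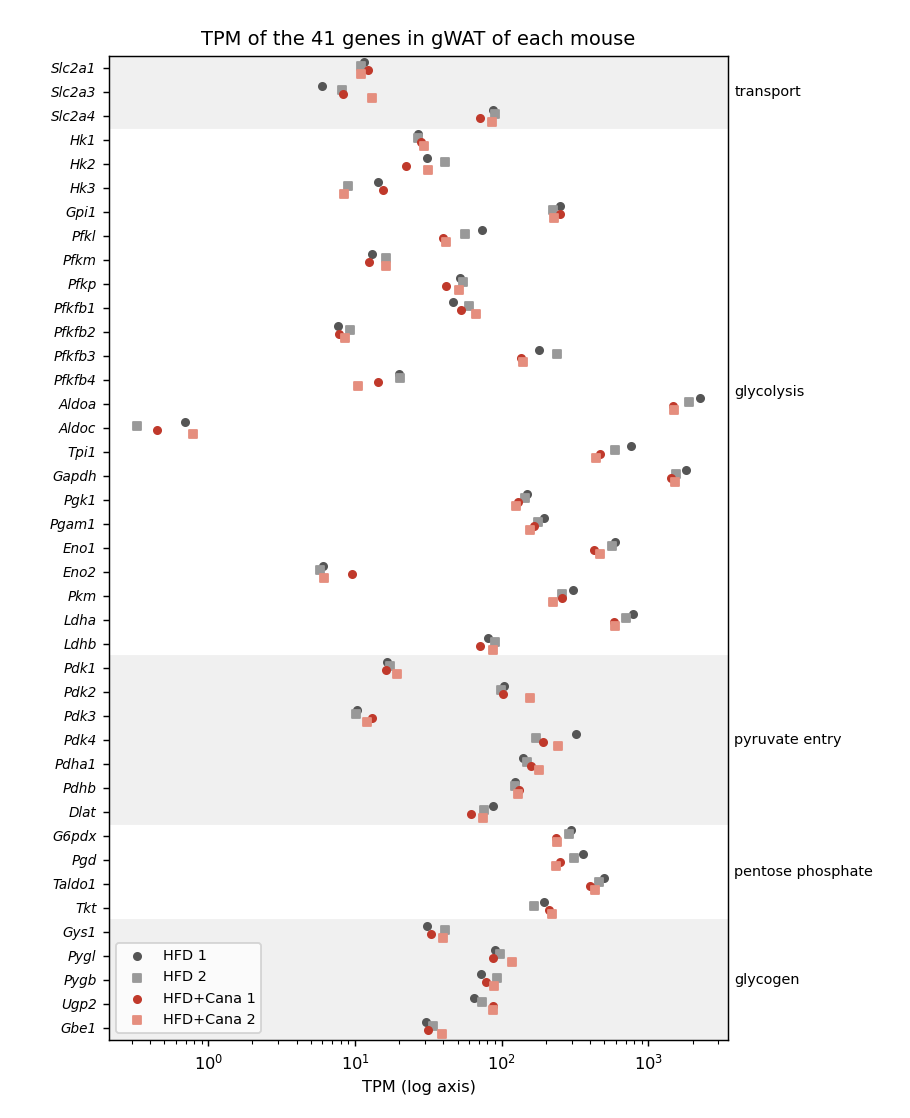
TPM (log axis) of the 41 genes by role, 1 point per mouse. Levels run from Aldoc, under 1 TPM in every mouse, to Aldoa, at 1463 to 2243 TPM, and the HFD+Cana points of Pfkl, Tpi1, Aldoa, Eno1 and Ldha lie to the left of the HFD points.

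For pyruvate entry into mitochondria, the directions were mixed. Of the pyruvate dehydrogenase subunits, Pdha1 (E1 alpha) stood at 140 and 148 (HFD) versus 157 and 181 TPM (HFD+Cana), and Pdhb (E1 beta) stood at 123.8 and 123.8 (HFD) versus 131 and 129 TPM (HFD+Cana). Both were higher in both HFD+Cana mice, with log2 fold changes of 0.23 (SE 0.10) and 0.07 (SE 0.07). Dlat, the E2 subunit of the same complex, was lower in both, at 86.6 and 76.1 (HFD) versus 61.9 and 74.9 TPM (HFD+Cana), although HFD+Cana replicate 2 came close to HFD replicate 2. Its log2 fold change was -0.25 (95% interval -0.59 to 0.09). Among the kinases that inactivate the complex, Pdk4, the form that fasting induces, was the most abundant. It stood at 319 and 170 (HFD) versus 191 and 240 TPM (HFD+Cana), so both HFD+Cana mice lay between the HFD mice, and the interval ran from -0.97 to 0.73. Pdk2 stood at 103 and 98.8 (HFD) versus 102 and 156 TPM (HFD+Cana), where HFD+Cana replicate 2 alone stood high. Pdk1 stood at 16.4 and 17.3 (HFD) versus 16.3 and 19.3 TPM (HFD+Cana), with overlapping groups. Pdk3 (X chromosome from 93764607 to 93832201) stood at 10.4 and 10.2 (HFD) versus 13.0 and 12.1 TPM (HFD+Cana). Its groups were separated by more than the distance within either (log2 fold change 0.26, SE 0.10, adjusted p = 0.452 in limma).

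In the pentose phosphate pathway, both NADPH-forming dehydrogenases were lower and transketolase was not. G6pdx (X chromosome from 74409483 to 74429194), the entry enzyme, stood at 296 and 286 (HFD) versus 235 and 239 TPM (HFD+Cana). Mice of a group lay close together and the groups far apart, with the HFD+Cana mean at 81.4% of the HFD mean (log2 fold change -0.30, SE 0.08, adjusted p = 0.343 in limma). Pgd (chromosome 4 from 149149991 to 149166771), the second dehydrogenase, stood at 360 and 310 (HFD) versus 249 and 236 TPM (HFD+Cana), at 72.3% of the HFD mean (log2 fold change -0.46, SE 0.11, adjusted p = 0.291 in limma). Taldo1, the transaldolase of the non-oxidative arm, stood at 501 and 459 (HFD) versus 397 and 429 TPM (HFD+Cana), a log2 fold change of -0.21 (SE 0.10). Tkt, the transketolase of the same arm, stood at 193 and 166 (HFD) versus 210 and 219 TPM (HFD+Cana), above HFD in both mice (log2 fold change 0.26, 95% interval -0.02 to 0.53).

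None of the 5 glycogen genes was lower in both HFD+Cana mice, and 1 was higher in both. Of all genes tested, 19.8% were lower and 24.3% higher in this way, and 5 genes are too few to set against these shares. Among 23 other glycogen genes tested, 8 were lower in both mice and 4 higher. Ugp2 (chromosome 11 from 21321138 to 21371201) makes UDP-glucose, the sugar donor of glycogen synthesis. It stood at 65.1 and 73.9 (HFD) versus 87.6 and 87.8 TPM (HFD+Cana), both above HFD and nearly equal to each other, at 126% of the HFD mean (log2 fold change 0.33, SE 0.09, adjusted p = 0.362 in limma). The muscle-type glycogen synthase Gys1 stood at 30.8 and 40.8 (HFD) versus 33.0 and 39.5 TPM (HFD+Cana), with an interval from -0.43 to 0.48. The branching enzyme Gbe1 stood at 30.7 and 33.9 (HFD) versus 31.6 and 39.4 TPM (HFD+Cana). The phosphorylases that release glucose-1-phosphate also overlapped: Pygl, the liver form, stood at 90.7 and 97.4 versus 87.1 and 118 TPM, and Pygb, the brain form, stood at 72.5 and 92.2 versus 78.0 and 89.1 TPM. Their shares in the summed phosphorylase TPM overlapped too, with Pygl at 55.6% and 51.4% in HFD and 52.8% and 57.1% in HFD+Cana.

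**Figure D4:**
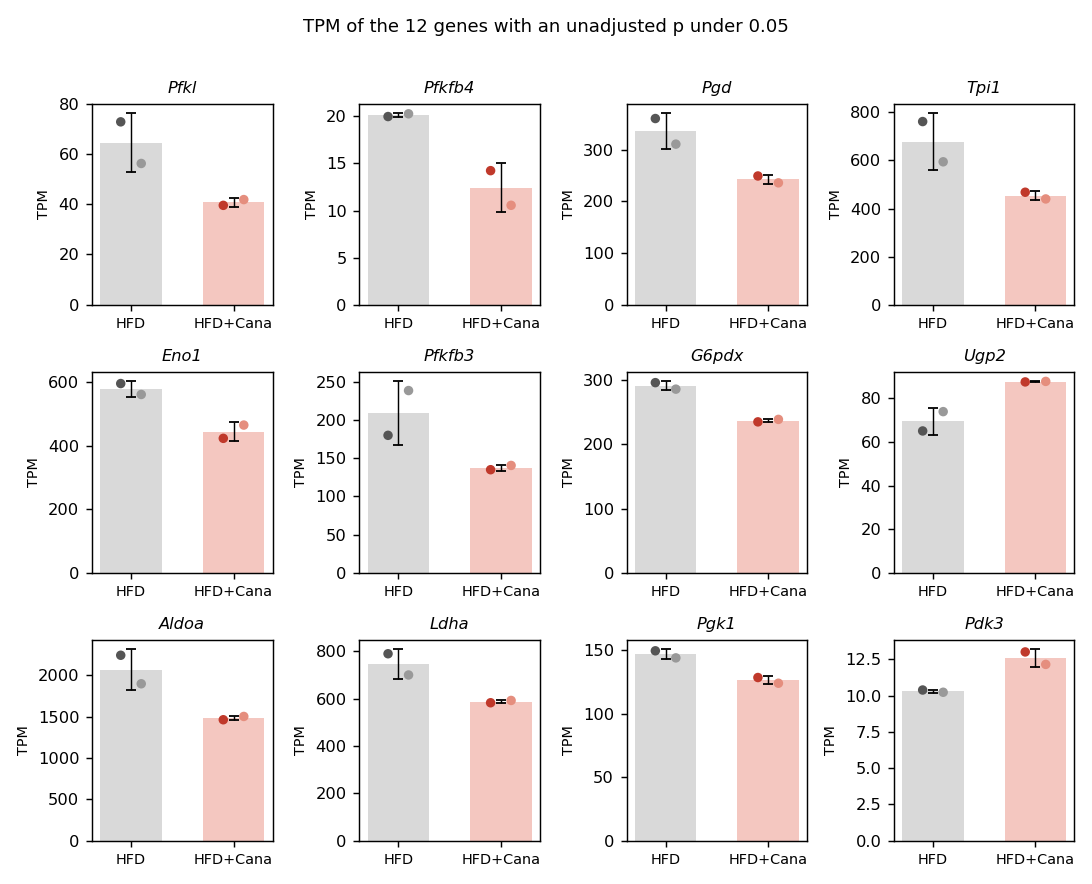
TPM of the 12 genes with an unadjusted p under 0.05 in limma, ordered by p; bars are means, whiskers SD over 2 mice and points single mice. In each of the 10 lower genes both HFD+Cana points lie below both HFD points, as for Pfkl at 39.6 and 41.9 against 72.8 and 56.3 TPM, and Ugp2 and Pdk3 show the opposite order.

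Reads of some of these genes could be split with near-identical copies. In GENCODE M21, 10 of the 41 genes had at least 1 other gene with a transcript aligning over at least 300 bases at 95% identity or more. Gapdh had 92 such copies, with a summed level of 14.6 to 20.5 TPM, or 1.117% of the level of Gapdh itself, and in the other genes the copies came to at most 0.628% of the gene's level. In the annotation 19 of the 41 genes overlap a gene on the other strand, among them Pfkfb3, Aldoa, Tpi1 and G6pdx of the 10 lower genes. The kit keeps strand, but the sources used here do not state the strand setting of the counting.

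Other genes of the same pathways, 88 in all with 76 above the filter, were read from a list that leaves the 41 out. That list, too, was chosen with earlier results of these data known. At an unadjusted p under 0.05 in limma, 9 were lower (11.8%, against 5.45% of all genes tested) and 3 were higher (against 5.32% of all genes tested). None passed an adjusted p of 0.05, and their median log2 fold change was -0.07. The groups were separated downwards in 25 (32.9%, against 19.8% of all genes tested) and upwards in 14 (against 24.3% of all genes tested). Among 23 other glycogen genes tested, 8 were separated downwards and 4 upwards. Of the 8 of smallest p, 7 are described here, and 3 of these act on glycogen. Ppp1r3c, which targets the phosphatase PP1 to glycogen and favours its synthesis, stood at 18.5 and 21.2 (HFD) versus 10.1 and 10.8 TPM (HFD+Cana) (log2 fold change -0.87, SE 0.11, adjusted p = 0.177 in limma). Gys2, the liver-type glycogen synthase, stood at 17.1 and 12.8 (HFD) versus 6.69 and 4.48 TPM (HFD+Cana) (log2 fold change -1.29, SE 0.23, adjusted p = 0.238 in limma). Stbd1, which tethers glycogen to membranes, was higher, at 10.6 and 12.8 (HFD) versus 20.3 and 16.4 TPM (HFD+Cana). So the 3 glycogen genes differed in direction.

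Outside glycogen, Slc2a12 (GLUT12) stood at 4.96 and 4.03 (HFD) versus 2.17 and 2.65 TPM (HFD+Cana), and Vhl, which marks the hypoxia-inducible factors for degradation, stood at 54.98 and 57.3 versus 25.2 and 37.9 TPM. Both were lower in both HFD+Cana mice, with log2 fold changes of -0.69 (SE 0.17) and -0.84 (SE 0.20). Ldhd, a mitochondrial D-lactate dehydrogenase, stood at 18.4 and 17.7 versus 14.0 and 14.4 TPM. Rpe, an epimerase of the pentose phosphate pathway, stood at 54.6 and 50.3 versus 42.5 and 41.7 TPM. Pck1, chosen after its values were seen, makes phosphoenolpyruvate for glyceroneogenesis in fat and stood at 592 and 855 (HFD) versus 981 and 1432 TPM (HFD+Cana) (log2 fold change 0.73, SE 0.27, adjusted p = 0.450 in limma).

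**Figure D5:**
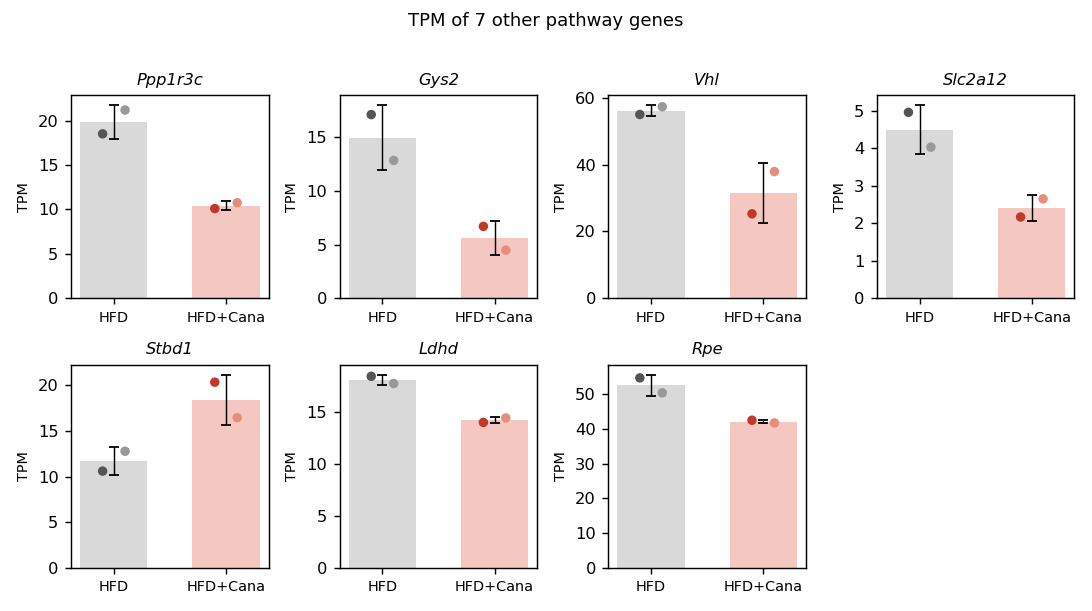
TPM of 7 of the 8 other pathway genes of smallest p; bars are means, whiskers SD over 2 mice and points single mice. Stbd1 is higher in both HFD+Cana mice, and the other 6 genes, among them Ppp1r3c and Gys2, are lower in both.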

How the data were processed

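Stranded mRNA libraries of gWAT (2 mice per group) were read as pairs of 150 bases. The authors ran nf-core/rnaseq 3.12.0 (nextflow 23.10.0, defaults) and deposited gene TPM from Salmon, 1000000 per column. Their notes to the repository list GRCm38, mm10 and R 4.3.2, and no annotation release was found. As TPM keeps no depth, no counting interval was given and no count model was used.

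Sample labels gave the groups. Above a mean of 1 TPM, log2(TPM + 1) entered limma 3.58.1 (R 4.3.3; trended eBayes, group as sole term; Benjamini-Hochberg over all genes, threshold 0.05). The fit was tested on simulated data in which the spread of a gene depended only on its mean level. That is a check of the code and does not measure how well changes are found in these mice. The limma p-values rest only on the spread between mice, which eBayes moderates with the spread over all genes tested. Isoenzyme shares were compared by exact two-sided permutation, adjusted over 25 shares. Copies came from blastn 2.17.0 and positions from GENCODE M21 (Python 3.11.15, pandas 2.3.3, matplotlib 3.10.9).

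The members and lists were chosen with earlier results of these data known. All 41 members could be named, and the 8 other pathway genes of smallest p, of which 1 is not reported here. Alternatives varied the pseudocount (0.1, 5), the filter (none, 5 TPM), the scaling (quantile, median of ratios), eBayes (no trend, robust), a replicate block, and the mice, each left out in turn.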

Additional observations from a re-analysis of the deposited data

How the results depend on the processing

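None of the 41 genes passed an adjusted p of 0.05 in limma under any alternative run. The count of higher genes over all genes (6) was 0 with a pseudocount of 0.1, no filter, a mean of at least 5 TPM or quantile normalization. It was 2 with a pseudocount of 5 and 13 with eBayes without trend. Of the members, 1 was higher at an unadjusted p under 0.05 with no filter or median-of-ratios scaling. The median of glycolysis was -0.18 (quantile) and -0.24 (median of ratios), and that of the pentose phosphate genes -0.17 (quantile). Hk3 reversed to -0.010 (quantile) and -0.0047 (median of ratios), and Gpi1 to -0.013 (median of ratios). The cause was not tested.

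With the replicate number as a block, the count of higher genes was 2, and at an unadjusted p under 0.05 the lower members numbered 13 and the higher ones 4. The labels do not say that the numbers pair mice, and with 2 pairs the correlation of deviations, 0.18 over 13788 genes, does not settle it.

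With each mouse left out, higher genes over all numbered 0, lower members 3 to 9 and higher members 1 to 4. Medians ranged from -0.0090 to 0.043 (all genes), -0.15 to -0.037 (members), -0.029 to 0.12 (transport), -0.28 to -0.19 (glycolysis), 0.021 to 0.19 (pyruvate entry), -0.30 to -0.21 (pentose phosphate) and -0.068 to 0.28 (glycogen). Of the 40 members, 27 kept their sign and 13 did not: Gbe1 (-0.028 to 0.28), Gpi1 (-0.065 to 0.089), Gys1 (-0.17 to 0.22), Hk3 (-0.39 to 0.43), Ldhb (-0.25 to 0.039), Pdk1 (-0.041 to 0.18), Pdk4 (-0.57 to 0.33), Pfkfb1 (-0.024 to 0.34), Pfkfb2 (-0.16 to 0.083), Pfkm (-0.21 to 0.16), Pygb (-0.14 to 0.20), Pygl (-0.11 to 0.33) and Slc2a1 (-0.029 to 0.12). In a gene whose groups were separated, leaving out a mouse cannot change the sign. Share differences, in percentage points, ranged from -0.028 to -0.0062 (Aldoa), -1.18 to -0.28 (Eno1), -14.5 to -2.51 (Hk2), -2.65 to -0.48 (Ldha), -13.4 to 0.27 (Pdk4), -9.71 to -7.34 (Pfkfb3), -12.6 to -4.14 (Pfkl), -0.71 to 3.58 (Pygl) and -5.46 to -4.52 (Slc2a4).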
